A study of Mus musculus with 4 samples.

Results

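The genes described here encode ephrins, Eph receptors, semaphorins, plexins, neuropilins, Slits and Robos, and their mRNA was measured in cultured mouse embryonic fibroblasts (MEFs). Members were all probes, controls aside, whose gene name belongs to one of these families. They comprised 78 of 39397 probes and 60 of 31806 gene names on the array: 5 ephrin-A and 3 ephrin-B ligands, 9 EphA and 5 EphB receptors, 7 class 3 and 13 membrane-bound semaphorins, 2 neuropilins, 9 plexins, 3 Slits and 4 Robos. The rule used gene names only, and it was chosen with earlier results of these data known.

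Ephrins are ligands held at the cell surface, those of class A by a lipid anchor and those of class B by a membrane span, and they signal through Eph receptor tyrosine kinases on the cell they touch. Class 3 semaphorins are secreted and act through neuropilins joined to plexins, whereas the other semaphorin classes mostly bind plexins directly. Slits are secreted proteins whose receptors are Robos. All were first studied as cues for growing axons, and in connective tissue they also take part in cell contact, migration, boundary formation and vessel patterning.

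The 4 preparations were compared, all MEFs of the C57BL/6J strain collected in logarithmic growth, with 1 array each. The labels give CycG2-/- cells (G2KO) with CycG2+/+ cells (here labelled G2WT), and CycG1-/- CycG2-/- cells (DKO) with a wild type of their own (G1G2WT). Per the methods, the Ccng1 allele lacks all coding exons, the DKO mice came from crosses of the single knockouts, and the cells were primary MEFs taken from embryos. The number of embryos behind a preparation is not given in the sources used here. The study ascribes higher Xist in its G2KO MEFs to their female origin. The signal of Xist on each array is not given here. Since the labels of G2KO and G2WT oppose the study's listed directions, as described below, neither array is taken as the female one. The part of sex in the results below was not tested. With 1 array in each group no ratio has a replicate check, so no test between genotypes was made and no p-value is given.

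Signals are given as multiples of the 75th percentile of the array. Where a probe was not well above background on an array, its ratio is a lower limit, written as at least so many fold, and a difference of at least 4-fold, limits included, was counted. All 4 arrays lay on 1 slide, and between 64.98% and 72.20% of the probes were well above background. Ccng1 stood at 1.66 on the array labelled G1G2WT and was not well above background in DKO MEFs, where it was at least 228-fold lower. It stood at 1.97 on the array labelled G2KO and at 9.43 on that labelled G2WT, and the labels name a change in Ccng1 for neither. Ccng2 stood at 0.0907, 0.104, 0.0616 and 0.0804 on the arrays labelled G2KO, G2WT, DKO and G1G2WT; whether its probe lies in the deleted part of the gene is not given in the sources used here. Among the 19466 genes measured on every array, log2 ratios had an SD of 1.02 between the arrays labelled G2WT and G1G2WT and 0.538 between those labelled G2KO and G1G2WT. By the labels, the wild-type arrays thus differed more from each other than the array labelled G2KO did from G1G2WT; with the labels of G2KO and G2WT exchanged, the wild types would be the pair with the SD of 0.538.

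The direction of every G2KO ratio below is that of the labels. For the genes that the study lists for G2KO, the labels oppose the direction it gives. No member is among the genes it lists for G2KO or DKO. The member Epha3 is listed as higher in G1KO MEFs, which have no array here. Of 29 genes that it lists for G2KO and that are named on the array, 0 moved in the listed direction and 29 in the other. For DKO, 26 of 26 moved in the listed direction. Arrays are for this reason named by their labels.

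The labelled cell type was checked against marker lists. Of 15 fibroblast markers, 15 were well above background on the arrays labelled G2KO, DKO and G1G2WT. On that labelled G2WT 12 were, and Pdgfra, Lum and Fap were dim. The 15 summed to 469, 330, 535 and 342 in this order. In DKO MEFs 1 was higher and 5 lower than in G1G2WT by at least 4-fold (median log2 ratio -1.72, against 0.03 over all genes). Between the arrays labelled G2KO and G2WT, 6 were higher and 0 lower (1.63 against -0.17). On that labelled G1G2WT 8 were higher and 0 lower than on G2WT (2.80 against -0.08). The shares of all genes past 4-fold in these pairs were 8.07%, 5.72% and 7.37%. Of 12 mesothelial markers, 12 were well above background in DKO MEFs, with a summed signal of 149.6, against 4 to 6 with summed signals of 0.687 to 1.60 on the other arrays. Wt1, Upk1b, Upk3b, Lrrn4 and Gpm6a were dim on all arrays except DKO. Of 12 neural markers, 5 to 7 were well above background on each array, and their summed signal was 30.8 on the array labelled G2WT against 1.97 to 4.0 on the others. Nes alone held 27.9 of the 30.8, and without it the sum was 2.90 against 0.454 to 2.04. Sox2 was well above background on that array alone, while Tubb3 and Stmn2 were at least 4-fold lower there than on the array labelled G2KO, so that 2 of the 8 neural markers compared in this pair were higher and 2 lower on that labelled G2KO. The summed signal of 11 craniofacial mesenchyme markers was 10.8, 4.58, 2.09 and 12.2 on the arrays labelled G2KO, G2WT, DKO and G1G2WT, and that of 8 smooth muscle markers was 225, 368, 49.5 and 273. Endothelial markers summed to 4.34 to 5.67, with 5 or 6 of 10 well above background and Tie1, Emcn and Sox17 dim on all arrays. Macrophage markers summed to 12.3 to 23.2, with 6 or 7 of 8 well above background and Aif1 dim on all arrays. In these bulk preparations fewer cells of a type and less RNA per cell cannot be told apart, and the part of these differences in the results below was not tested.

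The guidance genes varied widely between the preparations. Of the 60 genes, 47 were well above background on all arrays, 5 on 3 arrays, 4 on 2 arrays, and Epha6, Epha10, Ephb1 and Robo4 on none. Among the 47, the highest array exceeded the lowest by a median of 2.77-fold, against 1.74-fold over the 19466 genes of the same kind, and 14 (29.8%) kept within 2-fold over the arrays against 62.9% of all genes. The steadiest was Efna4, an ephrin-A ligand, with 1.17-fold from lowest to highest, followed by Efna1 with 1.28-fold and Ephb2 with 1.31-fold. The array labelled G2KO held the lowest signal of 23 of the 47 genes (48.9%), against 28.1% of all genes of that kind. This count depended on the scaling, since without it the same array was lowest at 9 of the 47 (19.1%), against 5.91% of all genes.

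Between DKO MEFs and their wild type, 56 members could be compared and 11 differed at least 4-fold, 4 higher and 7 lower in DKO MEFs. Over the 22876 genes compared, 8.07% differed by as much in either direction, 4.04% higher and 4.03% lower. The higher genes were the secreted semaphorins Sema3c and Sema3e, the plexin Plxnb3 and the Slit receptor family member Robo3. The lower genes were the neuropilin Nrp2, the plexins Plxna2, Plxna4 and Plxnc1, the semaphorins Sema5b and Sema7a, and Slit3. For 5 of the 11, 1 array was dim and the ratio is a lower limit. The median log2 ratio of the members was 0.18 against 0.03 over all genes, with 31 members above 0 and 25 below. Over all genes, 11991 were above 0 and 10885 below.

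**Figure D1:**
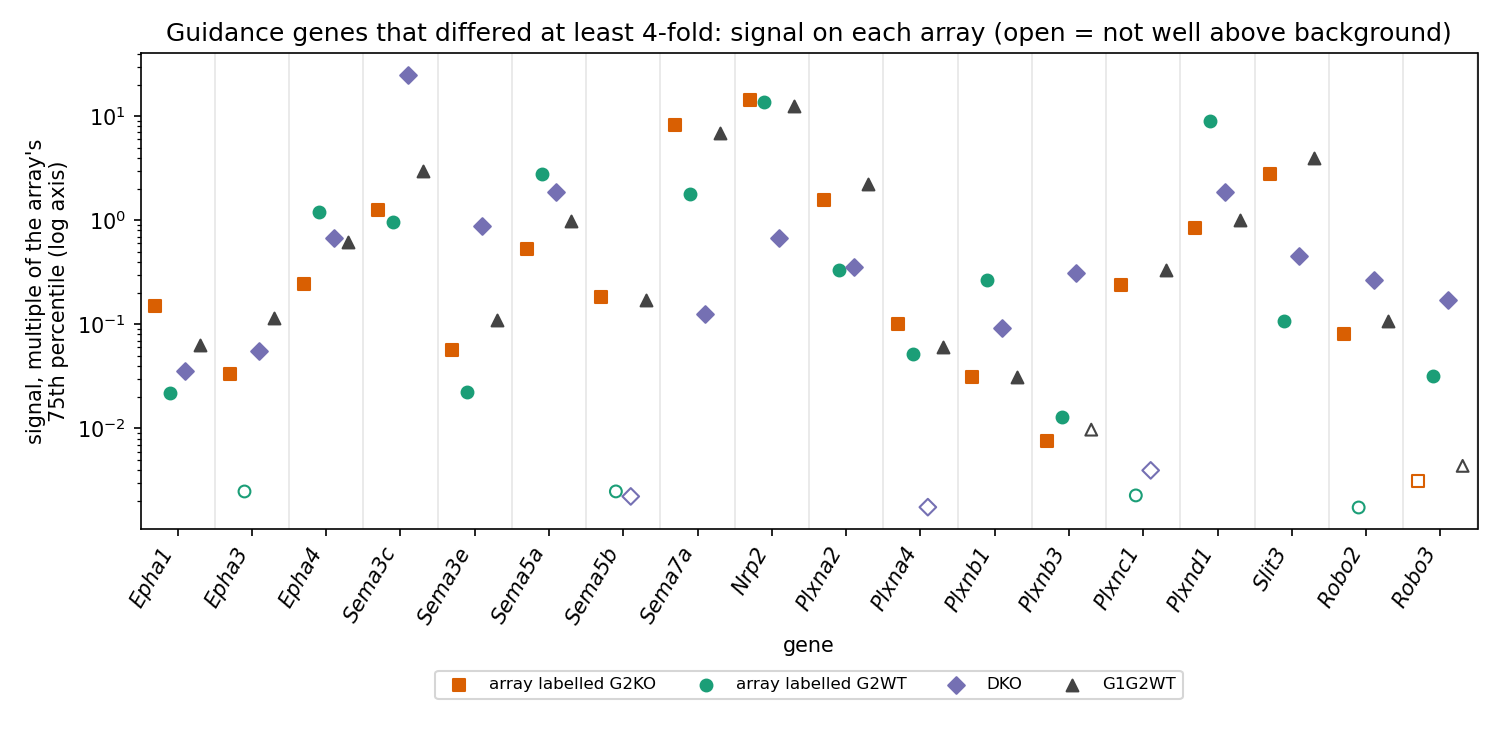
Signal of the 18 guidance genes that differed at least 4-fold in a knockout comparison or stood apart on 1 array, as a multiple of the 75th percentile of each array (log axis), with 1 symbol for each array. Open symbols mark arrays on which the probe was not well above background; Nrp2 is low on the DKO array alone, and Plxnc1 and Sema5b are dim on the arrays labelled G2WT and DKO.

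The sequences before the start sites of the 5 genes with the largest measured differences in DKO MEFs are shown as the genomic context of the genes described next. They are the 250 bases upstream of the RefSeq start on GRCm38.p6, a build that differs from the mm9 build of the probe positions. Capitals mark a GC box, GGGCGG or CCGCCC on the printed strand.
Nrp2, chr1:62703067-62703316, plus strand: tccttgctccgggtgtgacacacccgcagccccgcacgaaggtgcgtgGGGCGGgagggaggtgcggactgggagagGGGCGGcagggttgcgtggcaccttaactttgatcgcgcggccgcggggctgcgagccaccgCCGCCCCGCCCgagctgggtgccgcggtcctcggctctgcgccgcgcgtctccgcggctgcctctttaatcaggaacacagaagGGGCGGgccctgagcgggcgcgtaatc
Sema7a, chr9:57939862-57940111, plus strand: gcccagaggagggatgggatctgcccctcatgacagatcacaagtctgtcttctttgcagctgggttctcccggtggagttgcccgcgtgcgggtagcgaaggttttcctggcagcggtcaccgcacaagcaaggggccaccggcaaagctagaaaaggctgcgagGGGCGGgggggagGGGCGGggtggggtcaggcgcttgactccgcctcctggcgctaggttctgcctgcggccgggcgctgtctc
Slit3, chr11:35121206-35121455, plus strand: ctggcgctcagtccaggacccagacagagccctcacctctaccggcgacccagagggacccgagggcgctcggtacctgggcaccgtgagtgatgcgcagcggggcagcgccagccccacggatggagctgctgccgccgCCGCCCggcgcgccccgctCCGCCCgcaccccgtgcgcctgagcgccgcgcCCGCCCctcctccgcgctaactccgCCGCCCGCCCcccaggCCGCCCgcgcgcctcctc
Sema3c, chr5:17574566-17574815, plus strand: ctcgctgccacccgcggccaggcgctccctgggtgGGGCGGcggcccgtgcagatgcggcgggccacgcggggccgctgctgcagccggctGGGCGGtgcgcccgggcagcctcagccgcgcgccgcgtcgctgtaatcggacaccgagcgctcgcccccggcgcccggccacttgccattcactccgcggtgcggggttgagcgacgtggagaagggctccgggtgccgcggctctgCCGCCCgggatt
Sema3e, chr5:14025026-14025275, plus strand: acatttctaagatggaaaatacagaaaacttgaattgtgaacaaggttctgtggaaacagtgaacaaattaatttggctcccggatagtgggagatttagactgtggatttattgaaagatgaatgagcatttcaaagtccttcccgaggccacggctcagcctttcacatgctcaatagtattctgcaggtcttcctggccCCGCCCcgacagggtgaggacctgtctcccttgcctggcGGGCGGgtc

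The window of Nrp2 held 5 GC boxes, that of Sema7a 2, that of Slit3 6, that of Sema3c 3 and that of Sema3e 2, with overlapping copies counted separately. None held the letters CCAAT or TATAAA on either strand. CpG dinucleotides numbered 32, 17, 35 and 39 in the windows of Nrp2, Sema7a, Slit3 and Sema3c, and 7 in that of Sema3e. Among the members, 53 genes had 69 such windows, of which 49 (71.0%) held a GC box, 20 (29.0%) CCAAT and 2 (2.90%) TATAAA, counting both strands. The shares among all 32851 windows were 32.7%, 33.8% and 12.4%, and the median number of CpG was 15 among the members and 6 among all. Those windows belong to 27025 gene symbols and were not limited to genes on the array or measured in MEFs. A gene with several starts counts more than once. The part of this choice in the difference was not tested. All 5 windows held a GC box, whether the gene was higher or lower in DKO MEFs, and these letters are a description of the windows only.

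The secreted class 3 semaphorins held 2 of the 4 genes that were higher in DKO MEFs, and no other ligand was among them. Sema3c, which acts through Nrp1 and Nrp2 and is known from outflow tract development, stood at 1.25 on the array labelled G2KO, 0.967 on that labelled G2WT, 25.2 in DKO MEFs and 2.98 on that labelled G1G2WT. The DKO array was far above the other 3, which kept within 3.08-fold of each other. Sema3c was 8.45-fold higher in DKO MEFs than in G1G2WT (log2 ratio 3.08), and its other probe gave 9.10-fold (3.19). Sema3e, which unlike its class binds Plxnd1 without a neuropilin, stood at 0.0568, 0.0224, 0.883 and 0.110 in the same order. DKO MEFs were again the highest array, 8.04-fold above G1G2WT (log2 ratio 3.01).

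Sema3a and Sema3d, other secreted ligands of neuropilin complexes, were also highest in DKO MEFs without reaching 4-fold over G1G2WT. Sema3a stood at 1.47, 2.47, 4.23 and 2.54 in that order, and was 1.66-fold higher in DKO MEFs than in G1G2WT. Sema3d stood at 0.0222, was dim on that labelled G2WT, and reached 0.273 in DKO MEFs against 0.0919 in G1G2WT, a 2.96-fold difference. The probes of these 4 genes lie on chromosome 5 of mm9, in the order Sema3d (12586981 to 12587040), Sema3a (13602462 to 13602521), Sema3e (14256598 to 14256656) and Sema3c (17235981 to 17236040). The class 3 members on other chromosomes did not show DKO as the highest array. Neither did Epha5, Ephb4 and Slit2, members of other classes whose probes also lie on chromosome 5, and a pattern by chromosome was not tested. Sema3f, on chromosome 9, stood at 0.899, 0.570, 2.70 and 3.56 in the order G2KO, G2WT, DKO and G1G2WT. Sema3b on the same chromosome stood at 0.148, 0.159, 0.296 and 0.354, and Sema3g on chromosome 14 between 0.0174 and 0.0300. Of the 7 class 3 genes, 5 had a log2 ratio above 0 in DKO MEFs, with a median of 0.73.

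Nrp2, the co-receptor that class 3 semaphorins and VEGF-C share, was low in DKO MEFs only. It stood at 14.5 on the array labelled G2KO, 13.7 on that labelled G2WT, 0.672 in DKO MEFs and 12.6 on that labelled G1G2WT. The 3 other arrays lay close together, and DKO MEFs were 18.8-fold below G1G2WT (log2 ratio -4.23). Its other probe stood at 1.98, 2.38, 0.169 and 1.72 in the same order, 10.1-fold lower in DKO MEFs (-3.34). Nrp1, the other neuropilin, stood at 0.452, 1.01, 0.841 and 0.592, so that its 1.42-fold ratio in DKO MEFs (log2 0.51) ran the other way from that of Nrp2.

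Among membrane-bound semaphorins, which act on neighbouring cells through plexins or integrins, Sema5b and Sema7a were lower in DKO MEFs by at least 4-fold. Sema7a, a lipid-anchored semaphorin that binds integrins and Plxnc1, stood at 8.18, 1.79, 0.127 and 6.95 on the arrays labelled G2KO, G2WT, DKO and G1G2WT. DKO MEFs lay below each of the other arrays, 54.8-fold below G1G2WT (log2 ratio -5.78) and 14.1-fold below G2WT, and the wild-type arrays themselves differed by 3.89-fold. Sema5b, a semaphorin with thrombospondin repeats, stood at 0.182 and 0.17 on the arrays labelled G2KO and G1G2WT and was dim on those labelled G2WT and DKO. It was at least 23.4-fold lower in DKO MEFs than in G1G2WT (log2 ratio -4.55), and at least 12.1-fold lower by its other probe. Its relative Sema5a stood at 0.530, 2.78, 1.87 and 0.978, 1.91-fold higher in DKO MEFs. The other 10 genes of the class were within 4-fold in DKO MEFs, with log2 ratios from -0.27 for Sema6a to 1.56 for Sema4d. Of the 13 membrane-bound semaphorins, 9 had a log2 ratio above 0 in DKO MEFs against G1G2WT. Against the array labelled G2WT, 12 could be compared, of which 4 were above 0 and 8 below. Sema4d, which signals through Plxnb1, stood at 0.0796, 0.122, 0.207 and 0.0704, and Sema4c, a ligand of B-type plexins, at 9.40, 19.2, 13.9 and 9.49.

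Plexins, the receptors that turn semaphorin binding into changes of small GTPases, moved in both directions. Plxnc1, the receptor of Sema7a, stood at 0.240 and 0.330 on the arrays labelled G2KO and G1G2WT and was dim on those labelled G2WT and DKO. It was at least 45.4-fold lower in DKO MEFs than in G1G2WT (log2 ratio -5.50); the other probe, at 0.0395 on G1G2WT, allowed only a limit of at least 5.43-fold. On the array labelled G1G2WT both this receptor and Sema7a were thus above their DKO signal. Plxna2, a partner of neuropilins, stood at 1.58, 0.332, 0.355 and 2.24, 6.31-fold lower in DKO MEFs (-2.66) but within 1.07-fold of the array labelled G2WT. Plxna4, another partner of neuropilins, stood at 0.101, 0.0523 and 0.0611 on the arrays labelled G2KO, G2WT and G1G2WT and was dim in DKO MEFs, at least 8.40-fold below G1G2WT (-3.07), by 1 of its 2 probes; the other was dim on all arrays.

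Plxnb3, a receptor of Sema5a, stood at 0.00756 and 0.0130 on the arrays labelled G2KO and G2WT, was dim on that labelled G1G2WT and reached 0.312 in DKO MEFs. It was at least 30.5-fold higher in DKO MEFs than in G1G2WT (log2 ratio 4.93), and 24.1-fold higher than in G2WT. Plxnb2, a receptor of class 4 semaphorins, stood at 12.4, 29.5, 47.3 and 14.7, 3.22-fold higher in DKO MEFs, and Plxnb1, the receptor of Sema4d, at 0.0314, 0.268, 0.0915 and 0.0315, 2.91-fold higher. All 3 B-type plexins therefore had a log2 ratio above 0 in DKO MEFs against G1G2WT, with only Plxnb3 past 4-fold. Against the array labelled G2WT, the log2 ratios were -1.55 for Plxnb1, 0.68 for Plxnb2 and 4.59 for Plxnb3. Plxna1 and Plxna3 stood between 0.593 and 0.892 and between 0.415 and 1.15 over the arrays and had log2 ratios of -0.04 and -0.83.

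Among Slits and Robos, Slit3 was lower and Robo3 higher in DKO MEFs than in their wild type by at least 4-fold. Slit3 stood at 2.81 on the array labelled G2KO, 0.107 on that labelled G2WT, 0.451 in DKO MEFs and 3.96 on that labelled G1G2WT. The DKO array was 8.77-fold below G1G2WT (log2 ratio -3.13) 4.22-fold above G2WT and 6.22-fold below the array labelled G2KO. The direction thus depended on the wild type taken by the labels, and would be the same against both wild types if the labels of G2KO and G2WT were exchanged. Slit2, a ligand of Robo1 and Robo2, stood at 1.74, 0.518, 1.32 and 5.25, 3.99-fold lower in DKO MEFs than in G1G2WT, just short of 4-fold, and 2.54-fold higher than in G2WT. Slit1 stood at 0.0344, 0.0590, 0.0818 and 0.0341. Robo3, a divergent Robo of commissural axons, was dim on the arrays labelled G2KO and G1G2WT and stood at 0.0317 on that labelled G2WT and 0.172 in DKO MEFs. It was at least 16.8-fold higher in DKO MEFs than in G1G2WT (4.07) and 5.43-fold higher than in G2WT. Robo1 and Robo2, the main Slit receptors, stood at 0.414 and 0.268 in DKO MEFs against 0.613 and 0.107 in G1G2WT, within 4-fold.

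No ephrin and no Eph receptor was measured as 4-fold different between DKO MEFs and their wild type. The 3 ephrin-B ligands had log2 ratios of 1.32 for Efnb1, 0.82 for Efnb2 and 0.56 for Efnb3, and Efnb1 stood at 4.77, 3.15, 9.38 and 3.76 on the arrays labelled G2KO, G2WT, DKO and G1G2WT. The 5 ephrin-A ligands lay between -0.71 for Efna5 and 0.52 for Efna3. Of their receptors, Ephb4, which binds Efnb2 and is known from the arterial and venous boundary, stood at 2.12, 1.58, 0.814 and 2.53 and was 3.11-fold lower in DKO MEFs. Epha2, a receptor of ephrin-A ligands common in epithelium and fibroblasts, stood at 5.77, 12.4, 8.72 and 4.81 and was 1.81-fold higher. The remaining Eph receptors that could be compared had log2 ratios between -1.49, a limit for Epha8, and 0.57 for Epha5. Of the 19 ephrins and Eph receptors compared, 0 passed 4-fold in DKO MEFs, where 8.07% of all genes did and where the limit of Epha8 leaves a larger difference possible. Between the arrays labelled G2KO and G2WT 3 of 19 passed, where 5.72% of all genes did.

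**Figure D2:**
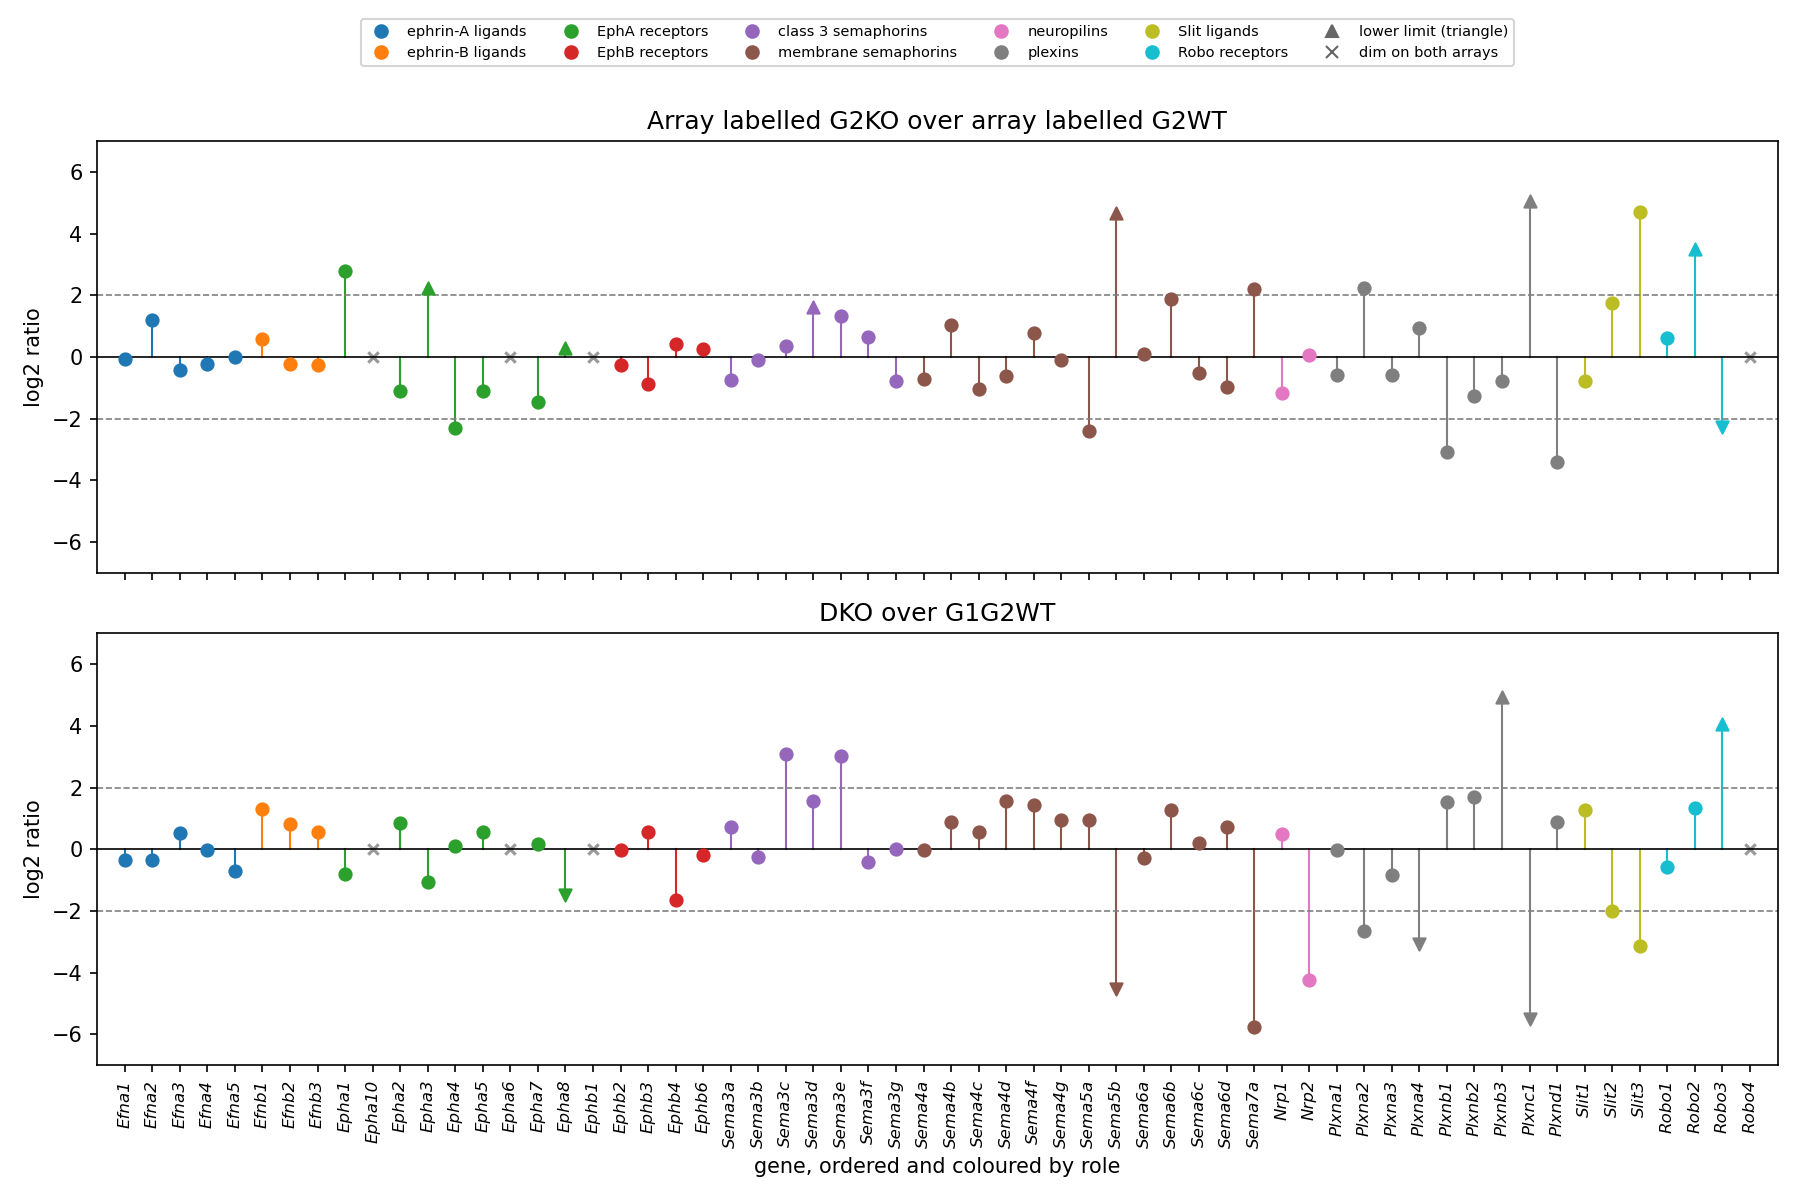
Log2 ratio of each of the 60 guidance genes for the array labelled G2KO over that labelled G2WT (upper panel) and for DKO MEFs over their wild type (lower panel), ordered and coloured by role. Triangles are lower limits, crosses are genes dim on both arrays, and dashed lines mark 4-fold; Plxnc1, Sema5b and Slit3 point up in the upper panel and down in the lower one.

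Of the 11 genes, all 11 differed at least 4-fold in the same direction between DKO MEFs and the array labelled G2KO, and 7 between DKO MEFs and the array labelled G2WT. These pairs share the DKO array with the first, and in them 8.58% and 9.62% of all genes differed by as much, and 13 of 56 and 15 of 53 members. These 7 stood apart from each of the other 3 arrays: Plxnb3, Robo3, Sema3c and Sema3e were higher in DKO MEFs, and Nrp2, Plxna4 and Sema7a lower. Over all 31806 genes, 1.91% stood apart in DKO MEFs by being higher and 0.912% by being lower. The 12 mesothelial markers gained signal on the same DKO array (median log2 ratio 6.40, 11 of 12 past 4-fold), as given above, and their part in these differences was not tested. The remaining 4, Plxna2, Plxnc1, Sema5b and Slit3, were low or dim on the array labelled G2WT as well. With normexp background correction, which adds an offset and compresses dim signals, Sema5b (-1.95) and Plxna4 (-1.01) no longer passed 4-fold.

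Between the arrays labelled G2KO and G2WT, 13 of 56 members were at least 4-fold apart, with 8 higher and 5 lower on the former, where 5.72% of 22789 genes did, 3.70% higher and 2.02% lower. The higher genes were Epha1, Epha3, Plxna2, Plxnc1, Robo2, Sema5b, Sema7a and Slit3, and the lower ones Epha4, Plxnb1, Plxnd1, Robo3 and Sema5a. The median log2 ratio was -0.09 among the members and -0.17 among all genes. If the labels of this pair were exchanged, the counts would exchange too.

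The largest differences in signal measured on both arrays were those of Slit3 and Plxnd1. Slit3, with the signals given above, was 26.2-fold higher on the array labelled G2KO than on that labelled G2WT (log2 ratio 4.71), and 37.0-fold higher on that labelled G1G2WT than on G2WT. Plxnd1, the receptor of Sema3e, stood at 0.846 on the array labelled G2KO, 9.02 on that labelled G2WT, 1.87 in DKO MEFs and 1.02 on that labelled G1G2WT. It was thus high on the array labelled G2WT alone, well above the array labelled G2KO (log2 ratio -3.41) and 8.87-fold above G1G2WT, and its other probe gave 10.2-fold (-3.35). Plxnd1 was the only member that stood apart from each of the other arrays by being higher on that labelled G2WT, and Epha3, Robo2 and Slit3 did so by being lower, against 0.582% and 0.865% of all genes. Plxnb1 was 8.52-fold lower on the array labelled G2KO than on G2WT (-3.09) and 8.50-fold lower on G1G2WT.

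Several receptors were dim on the array labelled G2WT. Robo2 stood at 0.0806, 0.268 and 0.107 on the arrays labelled G2KO, DKO and G1G2WT, and was higher on that labelled G2KO than on G2WT by at least 11.3-fold (log2 ratio 3.50). Its other probe gave at least 7.81-fold. Epha3, a receptor of ephrin-A5, stood at 0.0335, 0.0556 and 0.116 on the same arrays and was at least 4.69-fold higher on that labelled G2KO. Plxnc1 and Sema5b were dim there as well, with limits of at least 33.5-fold and 25.5-fold for the array labelled G2KO. The other probe of Sema5b gave at least 12.6-fold, and the dimmer other probe of Plxnc1 at least 1.85-fold. On this array Pdgfra, Lum and Fap were dim, and Nes stood at 27.9 against 1.06 to 1.96 elsewhere while other neural markers went either way, and the part of these differences was not tested.

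Of the remaining genes of the pair, Sema7a was 4.58-fold higher on that labelled G2KO (log2 ratio 2.20) and Plxna2 4.77-fold higher (2.25). Epha1, an Eph receptor of epithelia, stood at 0.151, 0.0220, 0.0359 and 0.0633 on the arrays labelled G2KO, G2WT, DKO and G1G2WT, 6.87-fold higher on that labelled G2KO (2.78). Epha4, a receptor of ephrins of both classes, stood at 0.245, 1.21, 0.671 and 0.618, 4.95-fold lower (-2.31), and Sema5a was 5.25-fold lower (-2.39). Robo3 was at least 4.82-fold lower (-2.27). The members nearest to 4-fold below it were Sema6b with 3.65-fold and Slit2 with 3.37-fold, both higher on the array labelled G2KO. With normexp background correction Epha1 (1.5), Epha3 (0.57), Robo2 (1.51), Sema5b (1.96) and Robo3 (-0.97) no longer passed 4-fold.

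None of the 13 genes was measured as 4-fold different between the array labelled G2KO and that labelled G1G2WT, the wild type of the other comparison. Of these genes, Robo3 was dim on both arrays and could not be compared. Sema4f, 5.92-fold higher, and Sema3d, 4.14-fold lower, were the members that differed by as much there, 2 of 54 members (3.70%) against 2.3% of 21409 genes, 0.911% higher and 1.39% lower. Of the 54, 39 (72.2%) had a negative log2 ratio, against 57.1% of all genes, and the median was -0.25 against -0.07 over all genes. Without scaling between arrays 27 (50%) were negative, against 31.7% of all genes, with medians of 0.0024 and 0.18. All 7 class 3 semaphorins were negative with and without scaling, whereas the 5 ephrin-A ligands were all negative with it and 2 of them without it. The arrays labelled G2WT and G1G2WT differed 4-fold at 12 of 56 members, 10 higher and 2 lower on G1G2WT, against 7.37% of 22139 genes, 4.61% higher and 2.76% lower. Since this pair and that of G2KO and G2WT share the array labelled G2WT, no overlap between them is read. The 12 members were Epha3, Plxna2, Plxnb1, Plxnc1, Plxnd1, Robo2, Sema5b and Slit3, with Slit2 (10.1-fold higher on G1G2WT), Sema3f (6.25-fold), Sema3e (4.89-fold) and Sema3d (at least 12.9-fold).

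**Figure D3:**
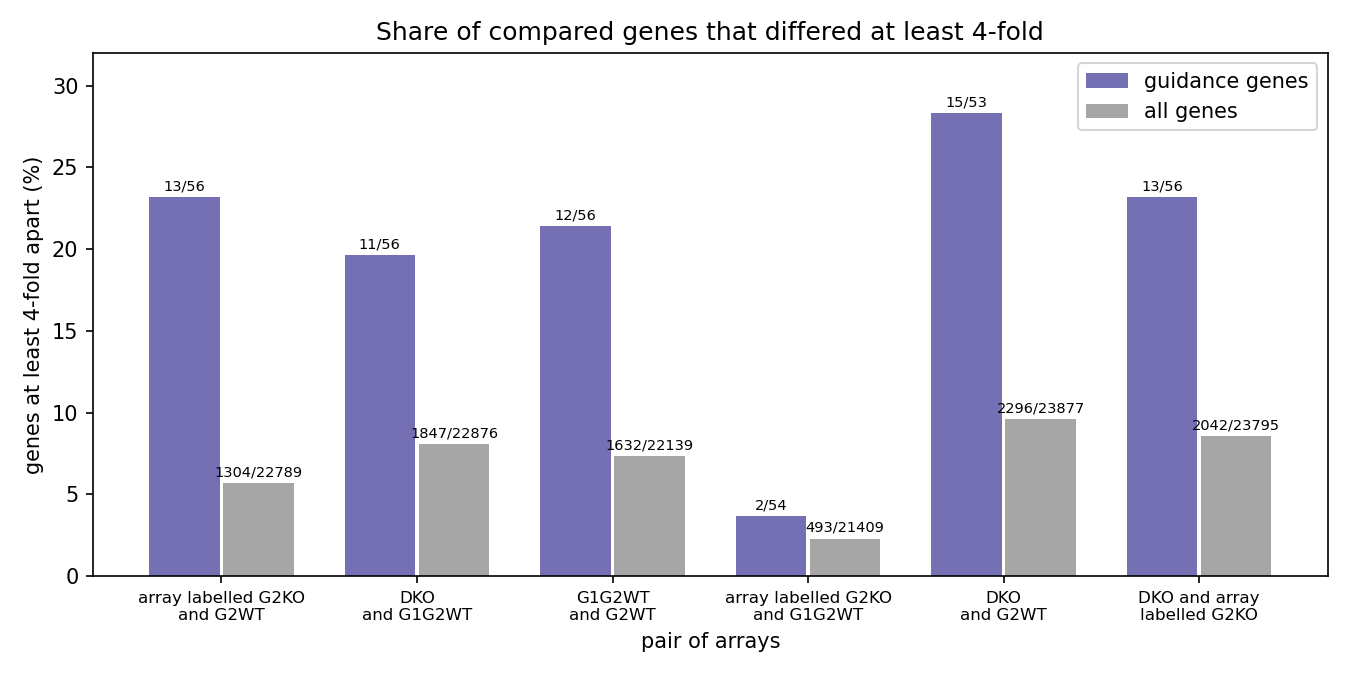
Share of compared genes that differed at least 4-fold, in percent, for each pair of arrays, with guidance genes in colour and all genes in grey; the numbers above the bars give genes past 4-fold over genes compared. The guidance genes lie between 19.6% and 28.3% in every pair except that of the array labelled G2KO and G1G2WT, where they lie at 3.70%.

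The share of guidance genes past 4-fold was above that of all genes in each of the 6 pairs of arrays, which share arrays and so are not independent of each other; for the arrays labelled G2KO and G1G2WT it rests on 2 genes. It was 19.6% against 8.07% for DKO MEFs and their wild type, 23.2% against 5.72% for the arrays labelled G2KO and G2WT, and 21.4% against 7.37% for the wild-type arrays. With the labels of G2KO and G2WT exchanged, the pair of wild types would be the arrays labelled G2KO and G1G2WT, at 3.70% of members against 2.3% of all genes, below both knockout comparisons. Among the 47 members measured on all arrays, the SD of the log2 ratio was 1.60 for DKO MEFs and their wild type, 1.47 for the arrays labelled G2KO and G2WT and 1.54 for the wild types, against 1.04, 0.878 and 1.02 over all genes of that kind.

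In all, 17 members had more than 1 probe, and no gene had probes of opposite sign with 1 of them past 4-fold in either knockout comparison. The probes of Plxnc1 lay furthest apart, both with lower limits, at log2 ratios of 5.07 and 0.89 between the arrays labelled G2KO and G2WT and of -5.50 and -2.44 in DKO MEFs. The other probes of Plxna4 and Sema4f were dim on all arrays and give no ratio, so the values of these genes rest on 1 probe each. Among genes with probes of opposite sign, Sema3g had log2 ratios of -0.79 and, as a lower limit, 0.61 between the arrays labelled G2KO and G2WT and of 0.02 and -1.29 in DKO MEFs.

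**Figure D4:**
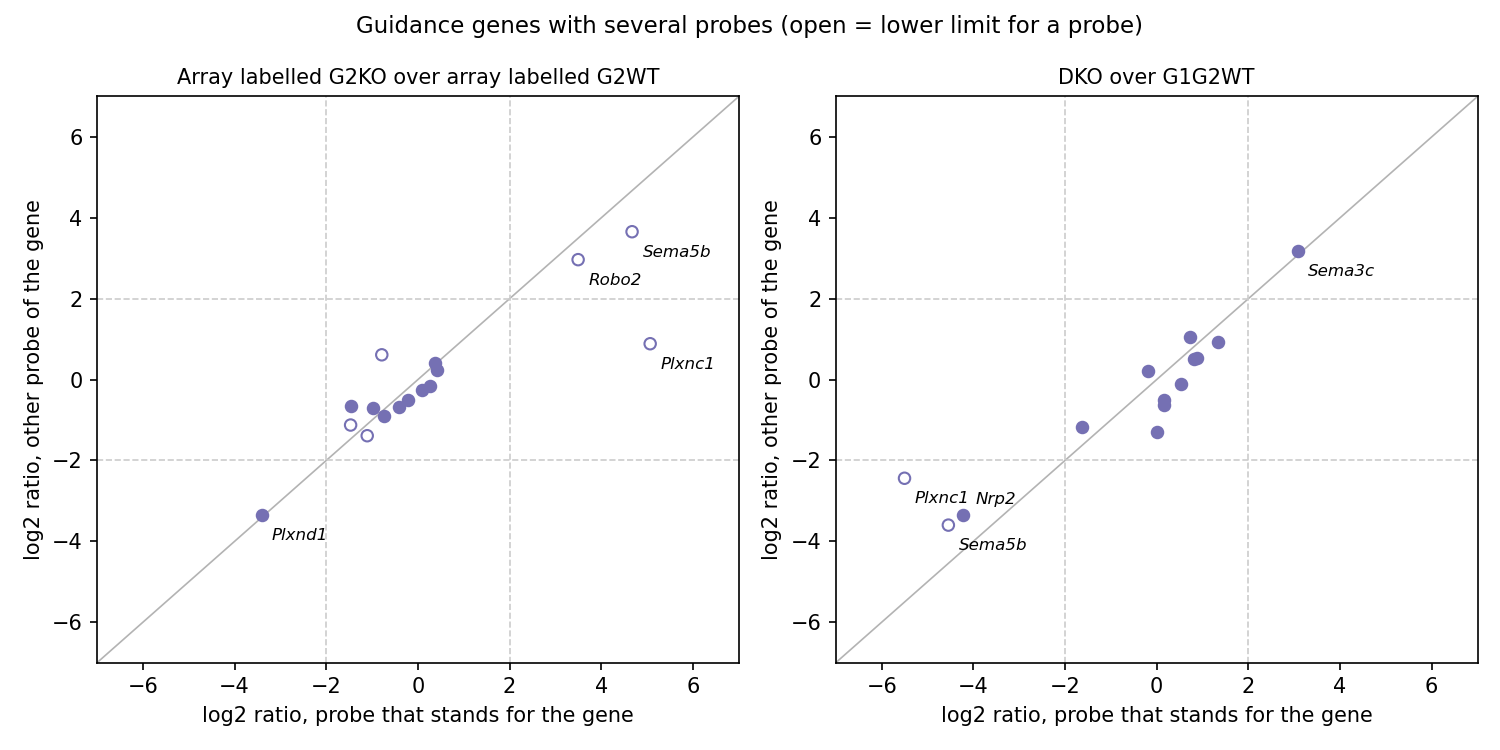
Log2 ratio of the probe that stands for a gene (horizontal) against that of its other probes (vertical), for the array labelled G2KO over G2WT (left) and DKO MEFs over their wild type (right). Open circles include a lower limit; the other probes of Nrp2, Sema3c and Plxnd1 lie near the diagonal, and that of Plxnc1 lies nearer to 0.

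Genes that work with these families were read from 5 lists, whose counts stand against 8.07% of all genes past 4-fold in DKO MEFs and 5.72% between the arrays labelled G2KO and G2WT. Of 21 partners of Eph and ephrin signalling, 1 was higher and 3 lower in DKO MEFs by 4-fold, and 0 between the arrays labelled G2KO and G2WT. Grip1, a scaffold that binds ephrin-B tails, stood at 0.0165, 0.0531 and 0.639 on the arrays labelled G2KO, G2WT and DKO and was dim on G1G2WT, at least 62.6-fold higher in DKO MEFs. Ngef, the exchange factor that EphA receptors use to activate RhoA, stood at 2.32, 1.19, 0.180 and 1.95, 10.8-fold lower. The other lower genes were Fyn (log2 ratio -2.09) and Kalrn (-2.08). Of 24 compared partners of semaphorins and plexins, 2 were higher and 2 lower in DKO MEFs, and between the arrays labelled G2KO and G2WT 2 were higher on the former and 0 lower. The lower genes in DKO MEFs were Farp2 (log2 ratio -2.46) and Nrcam (-2.85, a lower limit in size), and Nrcam was also higher on the array labelled G2KO (2.23, a limit). Crmp1, a mediator of Sema3a signalling, stood at 0.274, 0.0398, 0.585 and 0.0315. By the labels it was 18.5-fold higher in DKO MEFs and 6.89-fold higher on the array labelled G2KO, each against its own wild type. With the labels of G2KO and G2WT exchanged, these directions would be opposite. Mst1r, a receptor kinase that pairs with B-type plexins, stood at 0.0145 and 0.267 on the arrays labelled G2KO and DKO, was dim on G2WT, and stood at 0.0243 on G1G2WT, 11-fold below DKO.

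Of 13 partners of Slit and Robo signalling, 0 were higher and 2 lower in DKO MEFs. Flrt3, a membrane protein that binds Robo1 and Unc5 receptors, stood at 3.50, 0.240, 0.331 and 3.66 on the arrays labelled G2KO, G2WT, DKO and G1G2WT, high on the arrays labelled G2KO and G1G2WT and low on the other arrays. It was 11.1-fold lower in DKO MEFs and 14.6-fold higher on the array labelled G2KO. Enah, an actin regulator downstream of Robo, stood at 0.686, 0.661, 0.0947 and 0.643, 6.80-fold lower in DKO MEFs. Of 14 compared ligands and receptors of the netrin, Draxin and RGM systems, 0 were higher and 3 lower in DKO MEFs: Dscam, a netrin receptor, at 0.0588, 0.0148, 0.0103 and 0.225 on the 4 arrays, Unc5c (log2 ratio -2.14) and Ntng1 (-3.54, a lower limit in size). Of 8 VEGF ligands and receptors that pair with neuropilins, 1 was higher and 0 lower: Flt4, the VEGF-C receptor that uses Nrp2 as its partner, stood at 0.0403, 0.0270, 0.681 and 0.0538, 12.7-fold higher in DKO MEFs, where Nrp2 was 18.8-fold lower. Between the arrays labelled G2KO and G2WT, 1 of 13 partners of Slit and Robo signalling was higher on the former and 0 lower. In that pair 2 of 13 genes of the netrin, Draxin and RGM systems and 1 of 8 VEGF genes were higher, and 0 lower. The median log2 ratios of the 5 lists in DKO MEFs, in the order given, were -0.06, 0.49, -0.74, -0.30 and -0.22 against 0.03 over all genes.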

How the data were processed

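The arrays were Agilent whole mouse genome arrays, hybridised with Cy3-labelled RNA. The authors extracted each spot's intensity with Agilent Feature Extraction (version 10.5.1.1 in the submitters' processing notes, 10.7.3.1 in the file headers), with background and spatial trends corrected and no scaling between arrays; the deposited table holds the same intensity (largest log2 difference 0). The labels name single-color arrays for G2KO, whereas the supplementary methods name dye-swapped ones. Of 43020 spots an array, besides 1377 controls, 107 to 140 outliers were left out, and each member probe has 1 spot. Signals were divided by the array's 75th percentile (1589 to 2242). A probe entered a ratio if well above background on at least 1 array; a dim signal was set to the higher of itself and the lowest signal well above background (11.4 to 19.2). No spot was saturated. A gene with several probes was represented by that of highest mean log2 signal. All 60 members' transcripts carry the same symbol in GRCm38.p6. Calculations used Python 3.11.15, numpy 2.4.6 and pandas 2.3.3; normexp (offset 50) used limma 3.58.1 in R 4.3.3. On simulated DKO data of 39397 probes, 200 of 200 simulated log2 changes of 3 passed 4-fold, with 0 false calls; this tested the calculation only.

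Genes were named if past 4-fold in a knockout comparison, if 1 array stood apart by 4-fold from each of the other 3, or if their probes disagreed. Array signals were given for at most 3 partner genes of each list. Members and lists were chosen with earlier results of these data known. The alternatives were normexp, quantile, median and no scaling, a filter that needs both arrays bright or none, 2-fold and 10-fold thresholds, other reference arrays, the median over probes, and counts of probes.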

Additional observations from a re-analysis of the deposited data

Results flagged for a closer look

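A group of 6 genes differed at least 4-fold in opposite directions between the comparison labelled G2KO and that of DKO, each against its own wild type, and the difference between the comparisons was not tested. Of the 56 members compared in both, these 6 were the ones past 4-fold in both. Over the 21550 genes compared in both, 495 passed 4-fold in both, 404 of them (1.87% of those compared) in opposite directions and 91 in the same direction. In the G2KO pair and in the DKO pair, the log2 ratios were 2.25 and -2.66 for Plxna2, 5.07 and -5.50 for Plxnc1, -2.27 and 4.07 for Robo3, 4.67 and -4.55 for Sema5b, 2.20 and -5.78 for Sema7a, and 4.71 and -3.13 for Slit3. The values of Plxnc1, Robo3 and Sema5b are lower limits in size. The comparisons share no array, but the array labelled G2KO and that labelled G1G2WT differed by less than 4-fold at 5 of these genes and were both dim at Robo3, and the directions of the G2KO pair are those of its labels. With the labels of that pair exchanged, all 6 would differ in the same direction in both comparisons.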

How the results depend on the processing

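No paired analysis was possible because each group has 1 array, and no replicate could be left out for the same reason. Counts of members past 4-fold are given as higher and lower. Between the arrays labelled G2KO and G2WT (8 and 5), they were 4 higher with normexp, 2 lower without scaling, 4 higher where both arrays had to be well above background, 14 and 11 at 2-fold, 4 and 1 at 10-fold, 1 and 1 against the array labelled G1G2WT, and 4 and 0 against the mean of both wild types. For DKO MEFs (4 and 7), they were 2 and 4 with both arrays well above background, 13 and 11 at 2-fold, 2 and 4 at 10-fold, and 11 and 4 against the array labelled G2WT. For G1G2WT over G2WT (10 and 2), they were 5 higher with normexp and with both arrays well above background, 19 and 8 at 2-fold, and 0 lower at 10-fold. For the array labelled G2KO over G1G2WT (1 and 1), they were 0 and 0 with normexp and at 10-fold, 0 lower with the median or without scaling, and 2 and 11 at 2-fold. The remaining counts kept within 1.5 times. With normexp, 0 in place of 3 members stood apart by being lower on the array labelled G2WT; this alternative was chosen after seeing the data. Filters and thresholds act by construction, and the cause of the other shifts was not tested. Over 242 recalculated log2 ratios of the 18 named genes, 221 moved by less than the SD between the wild-type arrays (1.01), 21 moved by more, and 0 changed sign among those past 4-fold. Without scaling, the median log2 ratio of all genes between the arrays labelled G2KO and G2WT was 0.33 in place of -0.17. Each ratio rests on 1 spot on each of 2 arrays, the median SD between spots of a probe being 0.058 to 0.093 on the log2 scale, and this does not cover the spread between cultures. Ratios near the lowest signal well above background, 0.00658 to 0.0102 times the 75th percentile, are least certain.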
